A study of Mus musculus with 24 samples.

Results

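The genes described here are 41 mouse genes of the type I interferon response that act against viruses. They were taken by name from the gene column of the 4 deposited expression tables, 1 table for each time of LPS stimulation, and all 41 were found among the 23394 gene IDs that these tables hold. Of the 41, 40 had a mean of at least 0.5 FPKM (fragments per kilobase of gene, scaled to library size) over the 24 libraries and were tested. *Ddx60*, a helicase related to the RNA sensors, was below that level and is described by its values.

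RNA-Seq of poly(A) RNA was carried out on bone marrow-derived dendritic cells (BMDCs), which are cells grown from mouse marrow with the growth factor GM-CSF, from WT mice and from *TTP*-/- mice. In the latter *Zfp36*, the gene of the mRNA-destabilizing protein TTP, was deleted in the whole animal, so that the marrow itself came from TTP-deficient mice. Both genotypes were of the C57BL/6 background and 9 to 12 weeks old, and no other allele was involved. Cells were left untreated (0 h) or received 10 ng/ml LPS, the bacterial ligand of TLR4, for 3, 6 or 9 h, with 3 biological replicates in each of the 8 groups. Whether equally numbered replicates came from 1 animal, culture or day is not stated, and a culture of this kind is a mixture of cells rather than a sorted population. Values of the 3 libraries of a group are given in the order of replicates 1, 2 and 3.

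LPS signaling through the adaptor TRIF activates the transcription factor IRF3, which induces *Ifnb1*. Secreted IFN-β then binds its receptor on the same and on neighbouring cells, and the complex ISGF3, of which STAT2 and IRF9 are parts, is assembled and binds interferon-stimulated response elements (ISREs) in the promoters of the genes described here. Their products sense viral RNA, block its translation, degrade it or hold back virus particles. TTP recognizes AU-rich elements in 3' untranslated regions and promotes decay of the mRNA. The comparison of *TTP*-/- with WT cells asks which of these mRNAs differ in amount when TTP is missing, before and during the response to LPS.

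Promoter windows are shown first because many of them hold a motif that the choice of members did not use. A window of 300 bases, 250 before and 50 after the annotated start, was given by RefSeq (GRCm38.p6) for 31 of the 41 members, and *Dhx58*, *Zbp1*, *Oas2*, *Usp18*, *Mx1*, *Mx2*, *Rtp4*, *Parp9*, *Parp14* and *Tor3a* are named only. The letters GAAANNGAA, the core of the ISRE, were searched on both strands and occurred in 17 of the 31 (54.8%), against 9.8% of 27025 genes with such a window. The letters TTCNNNGAA, the GAS element of interferon-responsive promoters, occurred in 9 of 31 (29.0%), against 9.6% of all genes, and in *Ifitm3* and *Bst2* a match overlaps an ISRE core, just as ISRE cores overlap each other in *Isg15*. A match describes the letters of a window and not a bound site. The lines below give 26 bases around the core in members whose values follow, 5′ to 3′ on the strand of the gene, with the matched letters in capitals and the distance of the first matched base from the first transcribed base before the colon. A core on the opposite strand is shown as its reverse complement.
*Isg15*, chr4:156200867-156200892, minus strand, −66: aggaaaccGAAACAGAAaatagctct
*Ifit1*, chr19:34640797-34640822, plus strand, −84: gtctcagtTTCAGTTTCtcactgctg
*Ifit3*, chr19:34583400-34583425, plus strand, −121: aagtctgtTTCAGTTTCtactttcct
*Rsad2*, chr12:26456554-26456579, minus strand, −119: gtccaactTTCATTTTCagaaaacag
*Oas1g*, chr5:120887608-120887633, minus strand, −12: gggaaatgGAAACTGAAaatctactt
*Oas1a*, chr5:120907522-120907547, minus strand, −14: gggaaatgGAAACTGAAaatctactt
*Ifih1*, chr2:62646206-62646231, minus strand, 32: agagaatcGAAACAGAAaccgatctg
*Isg20*, chr7:78913343-78913368, plus strand, −73: ggggagggTTCTTGGAAtttttcctt
The windows of the neighbouring genes *Oas1g* and *Oas1a* carry the same 26 letters, and the values of both genes are given further on. The line of *Isg20* shows a GAS element, since the ISRE core was not among the letters of its window.

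Depth ranged from 19966708 to 25553546 assigned reads per library, with a median of 22559946. *Zfp36* was lower in each *TTP*-/- library than in each WT library at all 4 times, by −1.11 (adjusted p = 0.000847) on the log2 scale at 0 h, −0.29 (0.038) at 3 h, −0.50 (0.0581, or 0.0232 in a fit with a replicate block) at 6 h and −0.46 (0.00728) at 9 h, with limma. The 3 h call was lost without 5 of the 6 libraries in turn (adjusted p 0.0508 to 0.158), WT replicate 1 being the exception. Transcript of *Zfp36* thus remained, at 87.4, 101 and 102 FPKM in *TTP*-/- libraries against 213, 201 and 213 in WT libraries at 0 h. By Western blot, the paper found no TTP protein in *TTP*-/- BMDCs. The libraries farthest from their group were WT 6 h replicate 1 (median absolute log2 deviation over genes 0.338), *TTP*-/- 0 h replicate 3 (0.315) and WT 0 h replicate 2 (0.23), against a lowest value of 0.0717. Markers of other cells moved with the genotype. Of 15 neutrophil markers tested, 14, 15, 15 and 15 were higher in *TTP*-/- cells at 0, 3, 6 and 9 h, with summed FPKM at 9 h of 84.2 to 108 per library in WT and 603 to 659 in *TTP*-/- cells. Of 8 macrophage and monocyte markers, 8, 2, 8 and 8 were higher, and of 8 mast cell, basophil and eosinophil markers 7, 8, 8 and 8. Of 15 dendritic cell markers, 10, 9, 8 and 13 were lower and 0, 1, 2 and 1 higher. The summed FPKM of 11 plasmacytoid dendritic cell and B cell markers was 18.5 to 20.8 per library in WT and 3.32 to 4.79 in *TTP*-/- cells at 0 h, and 3.28 to 3.35 and 1.70 to 2.06 at 9 h. *Spib*, the 1 gene of that list past the filter, was lower at all 4 times (−2.58, adjusted p = 0.000262, at 0 h). Transcripts of the B cell gene *Ms4a1*, of *Ccr9* and Klk1 and of *Cx3cr1* stayed at or below 0.0711 FPKM in all libraries. Other genes of their lists did not, such as *Spib* (up to 19.5), *Cd14* (up to 162) and *Ly6c2* (up to 96.6). Of the dendritic cell markers, *Itgax* reached 15.5 and *Ccr7* 516 FPKM, and *Cd209a* stayed at or below 0.335. *Itgax* was higher in *TTP*-/- cells at 6 and 9 h (0.71 and 1.39, limma, adjusted p = 0.0131 and 4.32e-05). These FPKM depend on gene span and do not rank genes. The part of these other cells in the results on the interferon-stimulated genes was not tested. In a bulk culture, fewer cells of a type and less RNA per cell cannot be told apart.

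LPS induced the whole set in both genotypes. In 1 limma fit of log2(FPKM + 0.1) over the 24 libraries, brought to common size factors, 39 of 40 members were higher in WT cells at 3 h than at 0 h, and 40 of 40 at 6 and at 9 h, whereas 33.3, 34.6 and 35.8% of all 8344 genes tested were higher. In *TTP*-/- cells 40 of 40 were higher at each of the 3 times, against 31.7, 35.6 and 37.2% of all genes. None was lower in either genotype at any time (0 of 40 also at an unadjusted p below 0.05 and with voom, while 19.6, 21.6 and 22.0% of all genes were lower in WT and 22.4, 24.6 and 24.5% in *TTP*-/- cells). The median change of the 40 members on the log2 scale was 2.93, 3.64 and 3.35 in WT and 2.63, 3.69 and 3.66 in *TTP*-/- cells at 3, 6 and 9 h, and that of all genes lay between 0.08 and 0.11. The 3 comparisons with 0 h share the untreated libraries. The member not called at 3 h in WT cells was *Herc6* (0.22, standard error 0.155, adjusted p = 0.253).

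*Isg15*, which encodes a ubiquitin-like protein that is conjugated to viral and host proteins (chr4:156199424-156200818 in GRCm38, minus strand), was among the most strongly induced members. Its level in WT libraries was 1.35, 2.93 and 1.66 FPKM at 0 h and 294, 389.8 and 436 FPKM at 6 h, and in *TTP*-/- libraries 3.03, 2.99 and 4.64 and 312, 382 and 400.4 FPKM. The 6 h libraries were far above the 0 h libraries in both genotypes, with a log2 change of 8.10 (standard error 0.214) in WT and 7.20 (0.214) in *TTP*-/- cells. *Rsad2* changed by 6.97 and 7.80, and *Ifit1* by 6.69 and 6.75. At the other end *Samhd1* changed by 1.34 and 2.13 and *Trim25* by 0.97 and 1.81 at 6 h. A log2(FPKM + 0.1) scale understates the change of genes that start close to 0, such as *Ifit3* and *Oas2*.

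**Figure D1:**
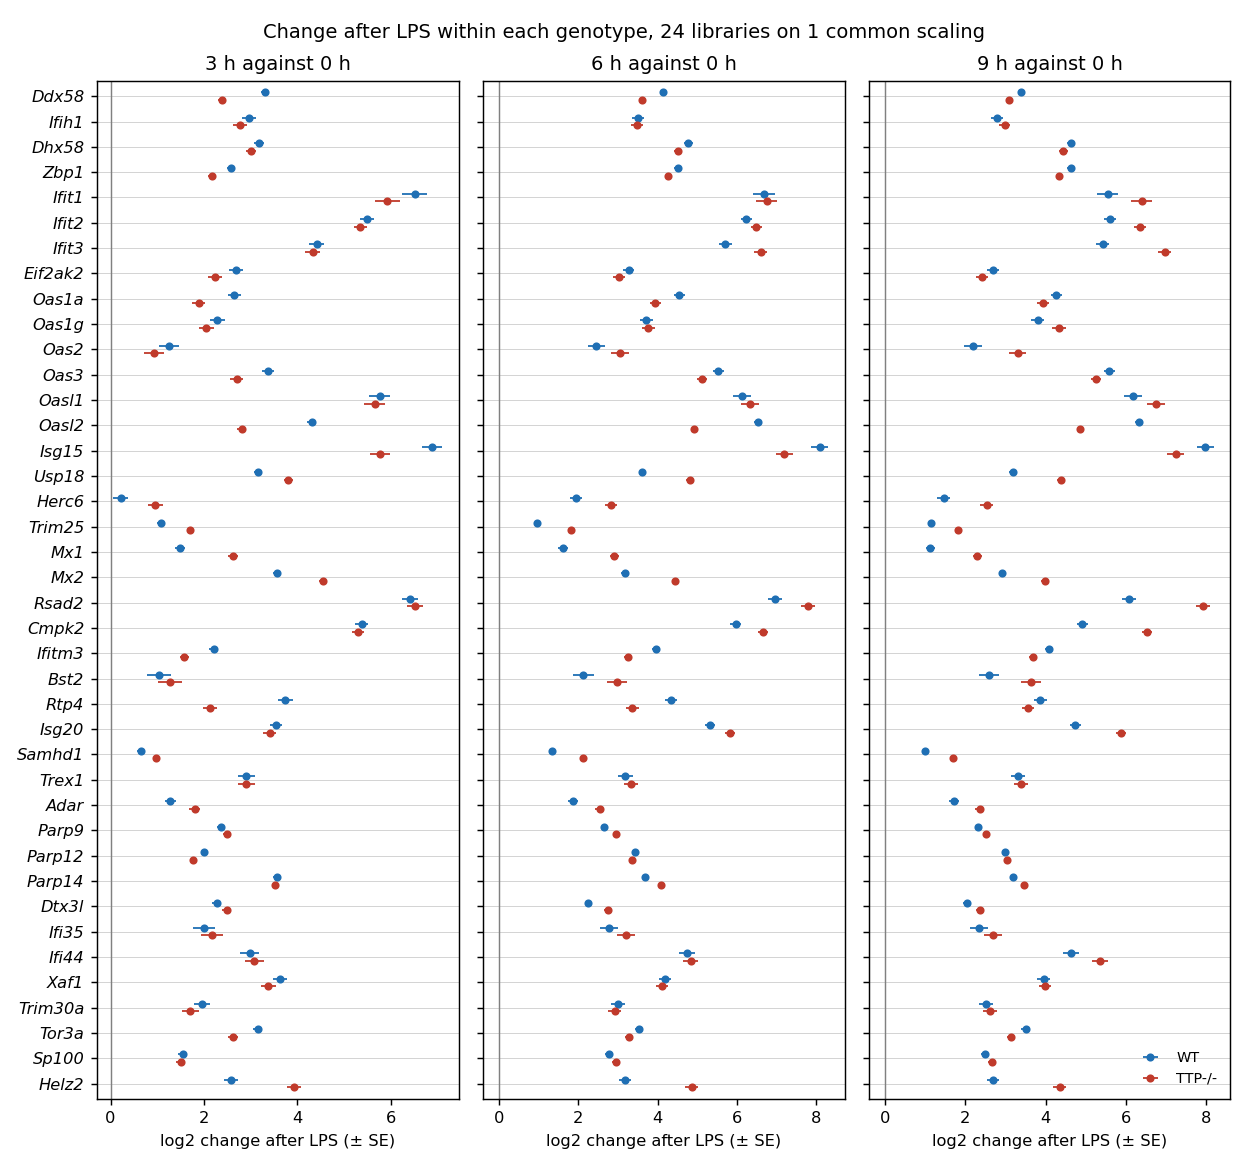
Change of each tested member after LPS on the log2(FPKM + 0.1) scale (x axis) in WT and *TTP*-/- BMDCs, as estimate ± standard error from 1 fit of 24 libraries, with 1 panel each for 3, 6 and 9 h against 0 h and 1 row for each gene. All 40 members lie above 0 in each panel, and *Herc6* in WT cells at 3 h (0.22) lies closest to it.

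FPKM of the authors divide by the span of the gene, introns included, so levels are compared between genes only after division by exon length. On that scale (reads per kilobase of exons, scaled to library size, mean ± SD, n = 3) *Ifitm3* was the most abundant member in untreated WT cells at 203 ± 22.0, followed by *Mx1* at 162 ± 2.72 and *Samhd1* at 142 ± 6.05. The distance between *Mx1* and *Samhd1* was larger than their spread, whereas the SD of *Bst2*, at 80.3 ± 23.5, and of *Helz2*, at 52.8 ± 7.84, met, and *Helz2* and *Trex1*, at 52.3 ± 8.79, did not differ beyond theirs. At 9 h *Ifitm3* reached 2322 ± 186 in WT and 3449 ± 422 in *TTP*-/- cells, and *Isg15* was next at 608 ± 42.8 and 728 ± 37.5. The least abundant members at 9 h in WT cells were *Oas2* at 3.10 ± 0.957 and *Ddx60* at 4.02 ± 1.37, which did not differ beyond their spread. The time of the highest mean was taken from another scale, FPKM brought to common size factors. There the mean level peaked at 6 h for 31 of the 41 members in WT cells, at 3 h for 2 and at 9 h for 8. In *TTP*-/- cells it peaked at 6 h for 25, at 3 h for 1 and at 9 h for 15.

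*TTP*-/- cells differed from WT cells in both directions, and the balance shifted with time. At 0 h 15 of the 40 members were higher and 10 lower in *TTP*-/- cells (limma, adjusted p of at most 0.05), when 13.9% of all genes tested were higher and 15.5% lower. At 3 h 8 were higher and 5 lower, against 11.3% and 14.6% of all genes. At 6 h 11 were higher and 0 lower, against 10.4% and 6.70% of all genes, and at 9 h 16 were higher and 3 lower, against 17.7% and 19.1%. As shares of the 40 members, the lower calls are 25, 12.5, 0 and 7.5%, and the higher calls 37.5, 20, 27.5 and 40%. Across the 4 times 20 members were higher at 1 time or more, against 23.4% of all genes, and 11 were lower at 1 time or more, against 28.3%. *Usp18* was in both groups, and 10 were called at no time (*Isg15*, *Ifih1*, *Eif2ak2*, *Trex1*, *Parp12*, *Parp14*, *Ifi35*, *Xaf1*, *Trim30a* and *Sp100*).

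The median difference of the members was 0.21, −0.10, 0.12 and 0.18 on the log2 scale at 0, 3, 6 and 9 h, and that of all genes −0.04, −0.05, −0.06 and −0.05. At 6 h, where replicates of the same number deviated together, a fit with a replicate block gave 14 members higher and 1 lower, adding *Usp18*, *Trim25* and *Parp14* (adjusted p = 0.0289, 0.0331 and 0.045) above and *Helz2* (0.0382) below. The 0 lower members at 6 h compare with 1 (*Helz2*) at an unadjusted p below 0.05 and 1 with voom on recovered reads. Rescaling to TPM raised the all-gene median difference by 0.119, 0.0888, 0.123 and 0.137 at the 4 times and lowered the change after LPS of all genes by 0.377 to 0.506, so changes are best read against the all-gene median. It gave 11 members higher and 2 lower at 3 h and 19 higher and 0 lower at 9 h, and quantile normalization gave 10 and 3 at 3 h and 20 and 1 at 9 h.

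Calls at 3 h rested on single libraries more than those of the other times. Without WT replicate 1 the 3 h counts were 10 higher and 10 lower, and without WT replicates 2 or 3 they were 3 and 1, and 6 and 3. Without *TTP*-/- replicates 1, 2 or 3 they were 2 and 1, 3 and 3, and 3 and 1. WT replicate 1 at 3 h was also the library with a macrophage marker sum of 155 FPKM, where the other WT libraries of 3 h had 58.9 and 41.5 and the *TTP*-/- libraries 193 to 233. Most of each sum was *Cd14*, at 123, 42.6 and 27.2 FPKM in WT libraries and 162, 132 and 136 in *TTP*-/- libraries. At 6 h the higher count was 7 without *TTP*-/- replicate 2 and 14 without WT replicate 1, when 1 was lower, and at 9 h the lower count was 1 without *TTP*-/- replicates 1 or 3 or WT replicates 1 or 3. At 0 h the higher count was 10 to 15 and the lower count 7 to 12 over the 6 omissions. The calls that held in each omission were 17 of 25 at 0 h, 3 of 13 at 3 h (*Oas2*, *Oas1g* and *Helz2*), 7 of 11 at 6 h (*Oas2*, *Ifit3*, *Rsad2*, *Isg20*, *Cmpk2*, *Oas1g* and *Ifit1*) and 13 of 19 at 9 h.

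**Figure D2:**
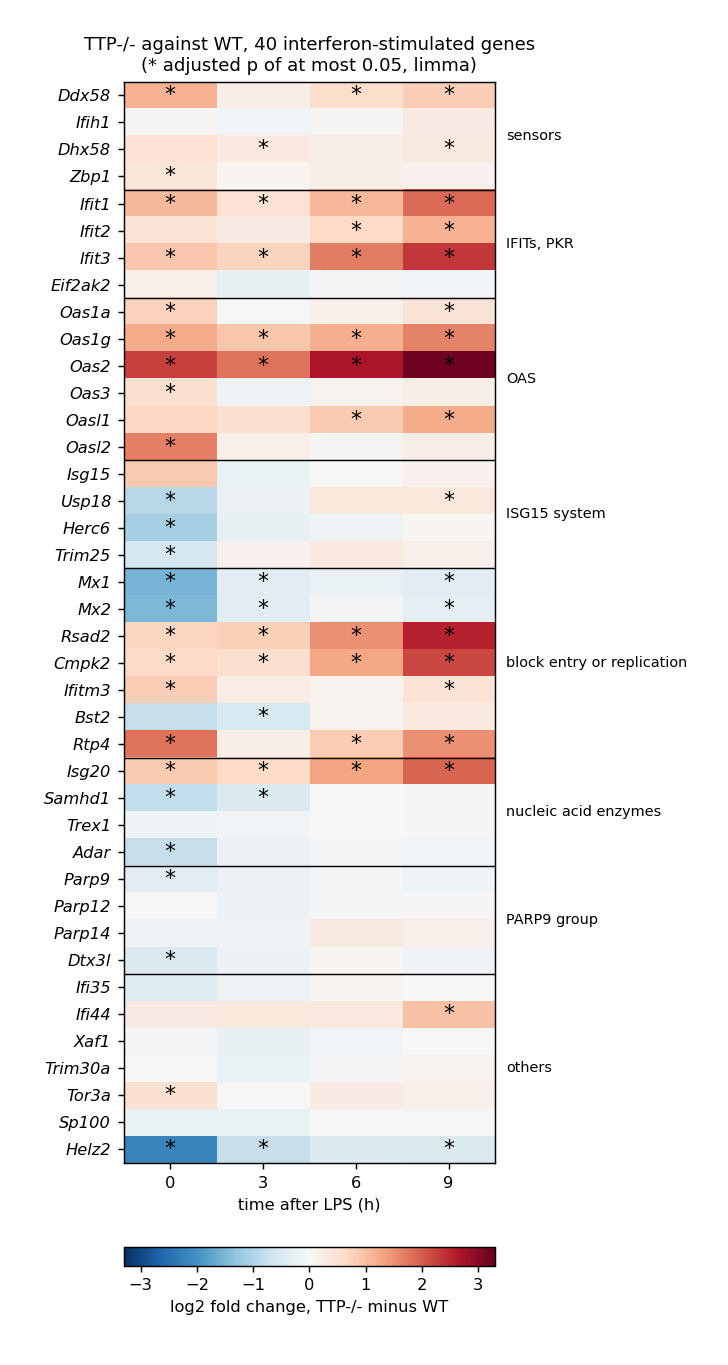
Difference between *TTP*-/- and WT BMDCs for the 40 tested members (rows, grouped by role) at the 4 times (columns), as the limma log2 fold change of FPKM + 0.1 in color, with an asterisk where the adjusted p is at most 0.05. *Oas2* has the highest value at each time, up to 3.21 at 9 h, and *Helz2* the lowest, down to −2.18 at 0 h.

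Among the cytosolic sensors of viral RNA and related genes, *Ddx58* was higher in *TTP*-/- cells at 3 of the 4 times, *Ifih1* was called at no time, *Dhx58* and *Zbp1* had smaller differences whose calls rested on single libraries, and *Ddx60* was below the filter. *Ddx58* encodes RIG-I, which recognizes 5′-triphosphate RNA (chr4:40203773-40239828, minus strand), and its level at 0 h was 0.517, 0.547 and 0.477 FPKM in WT libraries against 1.29, 1.31 and 1.14 in *TTP*-/- libraries. The groups did not overlap (log2 fold change 1.14 ± 0.113 SE, adjusted p = 0.000719). It was not called at 3 h (0.22 (adjusted p = 0.121)) and was higher again by 0.58 at 6 h (adjusted p = 0.0151) and 0.82 at 9 h (0.000462), where the 6 h call was lost without *TTP*-/- replicates 1 or 2 or WT replicates 2 or 3 (0.0563 to 0.0827). *Ifih1* encodes MDA5, the sensor of long double-stranded RNA (chr2:62595798-62646255, minus strand). Its level at 6 h was 6.69, 5.24 and 4.84 FPKM in WT libraries against 6.44, 5.91 and 4.95 in *TTP*-/- libraries, with overlapping groups (log2 fold change 0.05 ± 0.163 SE, adjusted p = 0.876), and no time passed the test.

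*Dhx58*, which encodes the regulator LGP2 of the 2 sensors, was higher by 0.32 at 3 h (adjusted p = 0.039) and 0.29 at 9 h (0.0238), and these calls were lost in 5 and 4 of the 6 omissions of a library (up to 0.148 and 0.0835). *Zbp1*, a sensor of Z-form nucleic acids that can trigger cell death, was higher by 0.41 at 0 h (0.0305, lost in 4 omissions, up to 0.131) and was not called later, and the difference of this effect between times passed no test. *Ddx60*, below the filter, had 0.336, 0.223 and 0.425 FPKM in WT libraries against 0.912, 1.02 and 0.872 in *TTP*-/- libraries at 9 h. The 3 *TTP*-/- libraries lay above the 3 WT libraries, with a ratio of means of 2.85 and a log2 fold change of 1.56 by voom on recovered reads (adjusted p = 1.14e-05) and 1.30 by limma without a filter (0.00941). Its low FPKM reflects division by a span of 110158 bases, of which 8684 are exons.

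A group of 3 neighbouring genes on chromosome 19 encodes IFIT proteins, which bind viral RNA with foreign 5′ ends and stop its translation, and all were higher in *TTP*-/- cells late after LPS. *Ifit3* (chr19:34583531-34588731, plus strand) had 3.76, 2.45 and 3.03 FPKM in WT libraries against 4.98, 5.24 and 5.09 in *TTP*-/- libraries at 3 h. At 9 h the values were 5.39, 6.72 and 5.41 FPKM in WT libraries against 27.0, 38.0 and 25.9 in *TTP*-/- libraries. The groups were apart at each time, and the difference grew from 0.73 (adjusted p = 0.0155) at 3 h to 1.69 (0.000126) at 6 h and 2.34 (6.62e-05) at 9 h, a ratio of means of 5.19. The 3 h call was lost without any 1 of the 3 *TTP*-/- libraries (0.0554 to 0.0598), and the 0 h call (0.89, 0.0175) without *TTP*-/- replicates 1 or 2 or WT replicates 1 or 3 (0.0525 to 0.0686).

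*Ifit1* (chr19:34640871-34650009, plus strand) had 34.7, 26.9 and 28.7 FPKM in WT libraries against 66.2, 63.4 and 63.4 in *TTP*-/- libraries at 6 h, and the groups did not overlap (log2 fold change 1.10 ± 0.131 SE, adjusted p = 0.00143). At 9 h its WT libraries had 17.7, 6.67 and 21.3 FPKM and its *TTP*-/- libraries 47.6, 63.1 and 42.7 FPKM. WT replicate 2 lay well below the other WT libraries, so that the error was large (log2 fold change 1.88 ± 0.413 SE, adjusted p = 0.011), and the call held without that library. Earlier it was higher by 1.07 at 0 h (adjusted p = 0.00257) and 0.47 at 3 h (0.0122, lost without *TTP*-/- replicates 1 or 3 or WT replicate 2, up to 0.0573). *Ifit2* was higher by 0.65 at 6 h (adjusted p = 0.0192, lost in 4 omissions, up to 0.0847) and by 1.14 at 9 h (0.00361). *Eif2ak2*, which encodes the kinase PKR that halts translation when it meets double-stranded RNA, had 14.1, 10.8 and 10.2 FPKM in WT libraries against 12.5, 11.6 and 9.62 in *TTP*-/- libraries at 6 h. These overlapped, and its differences were between −0.24 and 0.16 over the 4 times with no call (adjusted p 0.152 to 0.88).

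The 2′-5′-oligoadenylate synthetases make a second messenger in response to double-stranded RNA, and one of them, *Oas2*, had the largest difference of the set at each time. *Oas2* (chr5:120730333-120749853, minus strand) had 0.153, 0.139 and 0.0901 FPKM in WT libraries against 0.752, 0.968 and 1.24 in *TTP*-/- libraries before LPS. At 6 h the values were 0.75, 0.862 and 0.98 FPKM in WT libraries against 5.69, 6.53 and 6.20 in *TTP*-/- libraries. At 9 h they were 0.768, 0.511 and 0.907 and 7.38, 7.66 and 7.13 FPKM. Each *TTP*-/- library was above each WT library at all 4 times. Per kilobase of exons untreated *TTP*-/- cells, at 4.56 ± 1.19 (mean ± SD), did not differ beyond the spread from WT cells after 6 h of LPS, at 3.60 ± 0.4. That scale divides by library depth and not by the common size factors used over time, so the order of these means is not a result. The log2 fold changes were 2.24, 1.80, 2.70 and 3.21 (adjusted p = 0.000557, 0.00458, 3.92e-05 and 2.73e-05), and the 9 h means differed by 10.1-fold.

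*Oas1g* (chr5:120876142-120887613, minus strand) followed with 2.02, 2.53 and 2.57 FPKM in WT libraries against 7.22, 8.09 and 7.58 in *TTP*-/- libraries at 9 h. The groups did not overlap at any time, and the log2 fold changes were 1.22, 0.90, 1.18 and 1.65 at 0, 3, 6 and 9 h (adjusted p = 0.0032, 0.00988, 0.00483 and 5.46e-05). Its close relative *Oas1a*, with the same letters around the ISRE core, had 0.713, 0.835 and 0.706 FPKM in WT libraries against 1.36, 1.21 and 1.47 in *TTP*-/- libraries at 0 h, and 10.9, 14.2 and 16.9 and 13.5, 15.5 and 17.6 FPKM at 6 h. *Oas1a* was thus higher before LPS (log2 fold change 0.77 ± 0.122 SE, adjusted p = 0.00424), overlapped at 6 h (0.16 (adjusted p = 0.62)) and was higher again at 9 h by 0.44 (0.0261, lost in 5 of 6 omissions, up to 0.0839). Reads shared between these near-identical genes may have been split between them in the counting. *Oasl2* showed the early difference alone, at 1.12, 1.02 and 1.00 FPKM in WT libraries against 3.13, 3.53 and 3.89 in *TTP*-/- libraries before LPS (log2 fold change 1.65 ± 0.118 SE, adjusted p = 0.000262) and 0.05 (adjusted p = 0.806) at 6 h. Its mouse relative *Oasl1*, which restrains translation of *Irf7* in mice, showed the late one, at 0.86 at 6 h (0.0238, lost without *TTP*-/- replicates 2 or 3, 0.0824 to 0.0909) and 1.22 at 9 h (9.91e-05). *Oas3* was called at 0 h only (0.53, 0.0484), and each of the 6 omissions ended that call (0.051 to 0.151).

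**Figure D3:**
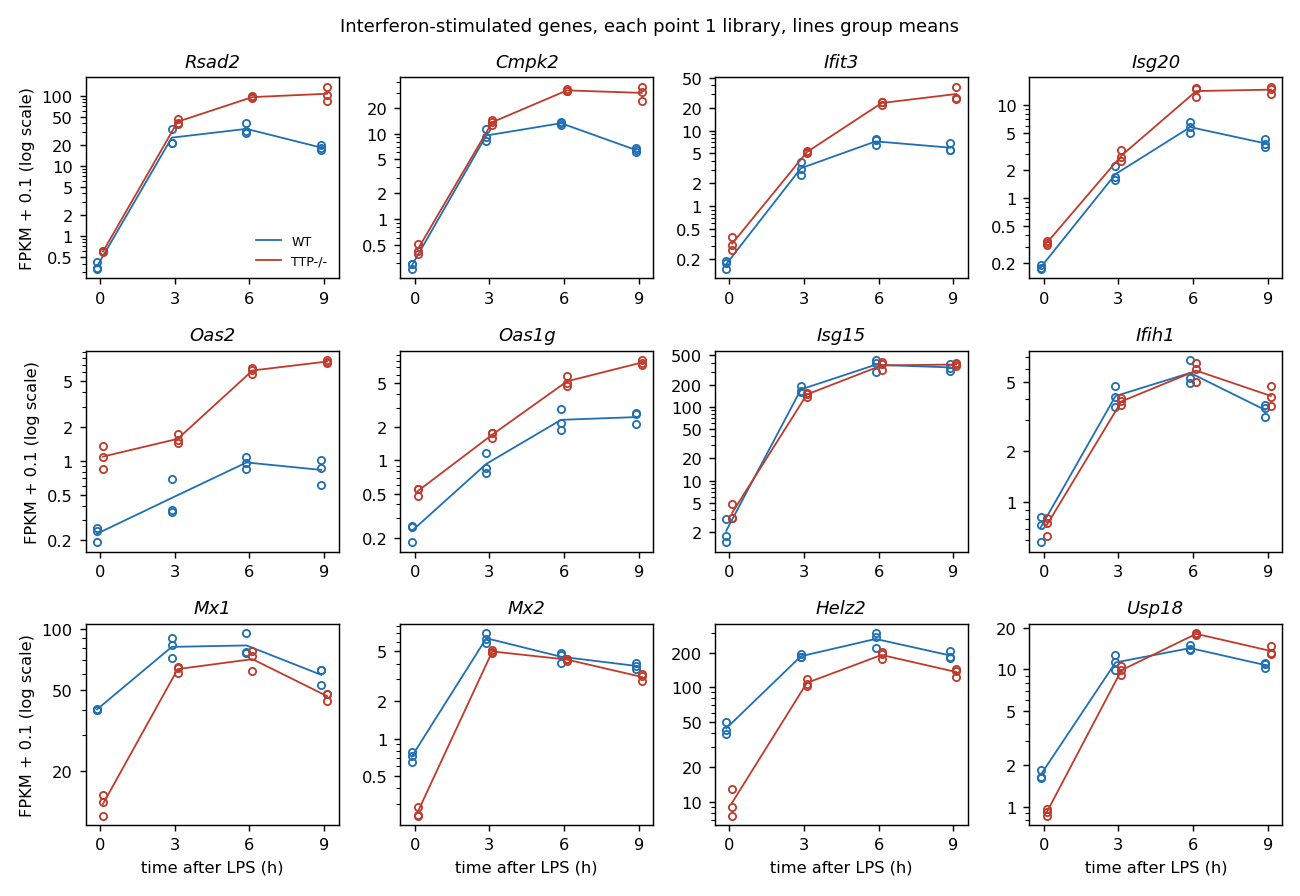
Levels of 12 members as FPKM + 0.1 (y axis, log scale), which the authors scaled within each time, against hours of LPS (x axis) in WT and *TTP*-/- BMDCs, with 1 point for each library and a line through the means of the 3 replicates. *Rsad2*, *Cmpk2*, *Ifit3*, *Isg20*, *Oas2* and *Oas1g* stay apart late, with *Oas2* at 0.729 ± 0.201 in WT and 7.39 ± 0.265 FPKM (mean ± SD) in *TTP*-/- cells at 9 h, whereas the points of *Ifih1* and, at 6 and 9 h, of *Isg15* overlap and those of *Mx1*, *Mx2*, *Helz2* and *Usp18* are apart at 0 h.

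Viperin, encoded by *Rsad2*, is a radical SAM enzyme that converts CTP into a chain terminator of viral RNA polymerases, and *Cmpk2*, its neighbour on chromosome 12, encodes a nucleotide kinase of mitochondria. Each differed more at 9 h, by value, than at the earlier times. *Rsad2* (chr12:26442746-26456452, minus strand) had 33.4, 20.7 and 20.9 FPKM in WT libraries against 46.6, 40.6 and 39.9 in *TTP*-/- libraries at 3 h. At 6 h the values were 39.9, 28.8 and 31.5 FPKM in WT libraries against 99.0, 91.7 and 94.6 in *TTP*-/- libraries. At 9 h they were 16.9, 19.3 and 17.8 and 101, 135 and 83.5 FPKM. The groups were apart at each of these times, with 0.79, 1.52 and 2.53 on the log2 scale (adjusted p = 0.0305, 0.000543 and 5.42e-05), and the 9 h means differed 5.91-fold. The 3 h call was lost in 5 of 6 omissions (0.0776 to 0.107).

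The ratio of the 9 h to the 6 h mean, on common size factors, was 0.535 in WT and 1.11 in *TTP*-/- cells for *Rsad2*, and 0.478 and 0.927 for *Cmpk2*. The difference between these ratios was not tested. *Cmpk2* (chr12:26469204-26479837, plus strand) had 6.01, 6.61 and 6.34 FPKM in WT libraries against 30.4, 35.4 and 23.7 in *TTP*-/- libraries at 9 h. Again the groups did not overlap (log2 fold change 2.20 ± 0.149 SE, adjusted p = 5.24e-05). It was higher at the earlier times by 0.63, 0.53 and 1.28 (adjusted p = 0.0226, 0.032 and 0.000232), of which the 0 h call was lost in 4 omissions (up to 0.0835) and the 3 h call in 5 (up to 0.105).

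*Mx1* and *Mx2* encode dynamin-like GTPases that trap viral nucleocapsids, and mice of the C57BL/6 background carry a truncated, inactive *Mx1* allele. *Mx1* (chr16:97447035-97462907, minus strand) had 39.9, 39.9 and 40.4 FPKM in untreated WT libraries against 12.0, 15.2 and 14.1 in untreated *TTP*-/- libraries. The WT libraries agreed closely with each other and were all higher (log2 fold change −1.54 ± 0.12 SE, adjusted p = 0.000317). At 6 h the values were 95.1, 75.7 and 77.0 FPKM in WT libraries against 77.1, 73.4 and 61.7 in *TTP*-/- libraries, which overlapped (−0.22 (adjusted p = 0.369)). The smaller differences at 3 and 9 h (−0.36 and −0.34, adjusted p = 0.0473 and 0.0322) were lost in 5 of 6 omissions each (up to 0.164 and 0.114) and with TPM or quantile normalization. *Mx2* (chr16:97535308-97560900, plus strand) had 0.553, 0.674 and 0.618 FPKM in WT libraries against 0.141, 0.144 and 0.184 in *TTP*-/- libraries at 0 h. The groups did not overlap (log2 fold change −1.48 ± 0.139 SE, adjusted p = 0.000632), and the values of 3 and 9 h (−0.35 and −0.29) were likewise lost in 5 and 4 omissions (up to 0.13 and 0.137).

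Among the other genes that hold back virus entry and release, *Rtp4*, whose product binds viral RNA at replication sites, had 1.74, 1.29 and 1.77 FPKM in WT libraries against 5.79, 6.92 and 4.84 in *TTP*-/- libraries before LPS. *TTP*-/- libraries were all higher (log2 fold change 1.80 ± 0.178 SE, adjusted p = 0.000711), the 3 h value was 0.22 (adjusted p = 0.191), and the difference was 0.83 at 6 h (0.0119, lost without *TTP*-/- replicates 2 or 3, 0.0502 to 0.0532) and 1.5 at 9 h (0.000281). *Ifitm3* encodes a membrane protein that blocks fusion of viruses with endosomes (chr7:141009586-141010770, minus strand). Its level at 0 h was 132, 121 and 108 FPKM in WT libraries against 209.8, 218 and 208 in *TTP*-/- libraries, and at 9 h 1372, 1326 and 1441 and 1671, 2158 and 1815 FPKM. The groups did not overlap at either time (0.82 (adjusted p = 0.00298) at 0 h and 0.44 (adjusted p = 0.022) at 9 h), and the 9 h call was lost without *TTP*-/- replicate 3 or WT replicates 1 or 2 (0.0546 to 0.0596). *Bst2*, which encodes tetherin, had 39.1, 32.1 and 32.0 FPKM in WT libraries against 22.7, 25.8 and 24.6 in *TTP*-/- libraries at 3 h. All *TTP*-/- libraries were lower (log2 fold change −0.49 ± 0.108 SE, adjusted p = 0.0191), and the call was lost without *TTP*-/- replicates 1 or 3 or WT replicate 2 (0.0509 to 0.0784). Its other times were not called.

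Enzymes acting on nucleic acids went different ways. *Isg20*, an exonuclease for single-stranded RNA (chr7:78913424-78920396, plus strand), had 4.88, 5.70 and 6.50 FPKM in WT libraries against 12.2, 15.2 and 14.8 in *TTP*-/- libraries at 6 h. At 9 h the values were 3.41, 4.21 and 3.73 FPKM in WT libraries against 13.2, 14.8 and 15.7 in *TTP*-/- libraries. *TTP*-/- libraries were all higher at each of the 4 times, by 0.87, 0.67, 1.29 and 1.92 (adjusted p = 0.00483, 0.0248, 0.00129 and 3.32e-05), and the 3 h call was lost in 4 omissions (up to 0.0889). *Samhd1*, which depletes the nucleotides needed for reverse transcription (chr2:157097533-157135265, minus strand), had 35.2, 33.9 and 38.1 FPKM in untreated WT libraries against 19.1, 21.2 and 20.5 in untreated *TTP*-/- libraries. It was lower in all *TTP*-/- libraries at 0 h (log2 fold change −0.81 ± 0.106 SE, adjusted p = 0.00191) and at 3 h by −0.44 (0.0135, lost in 3 omissions, up to 0.0708). At 6 h its values overlapped, at 65.1, 60.0 and 56.8 FPKM in WT libraries against 62.4, 63.0 and 57.0 in *TTP*-/- libraries (0.01 (adjusted p = 0.981)). *Adar*, the editing enzyme of double-stranded RNA, was lower at 0 h by −0.76 (0.0137, lost without *TTP*-/- replicate 1 or WT replicate 3, 0.0506 to 0.051) and at no other time. *Trex1*, a DNA exonuclease, passed no test, and its 1802 bases lie within the overlapping gene *Atrip* on the same strand, so the reads of the 2 genes are uncertain.

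Several genes of the ISG15 system were lower before LPS and not lower by the test afterwards. *Isg15* itself, with 333, 386 and 311 FPKM in WT libraries against 358, 390.3 and 379.9 in *TTP*-/- libraries at 9 h, overlapped at 6 and 9 h and passed the test at none of the 4 times (adjusted p 0.0729 at 0 h and 0.165 to 0.954 later). *Usp18* removes ISG15 from proteins and also dampens signaling at the interferon receptor (chr6:121245906-121270917, plus strand). It had 1.56, 1.52 and 1.76 FPKM in WT libraries against 0.763, 0.867 and 0.811 in *TTP*-/- libraries at 0 h, and 10.2, 10.8 and 11.0 and 12.8, 14.6 and 13.0 FPKM at 9 h. All *TTP*-/- libraries were below the WT libraries before LPS (log2 fold change −0.90 ± 0.11 SE, adjusted p = 0.00147) and all above them at 9 h (log2 fold change 0.34 ± 0.0876 SE, adjusted p = 0.0218), where the call was lost without WT replicates 1 or 3 (0.0502 to 0.0755). *Herc6*, the main ISG15 ligase of mice (chr6:57581000-57664632, plus strand), had 0.862, 0.657 and 0.958 FPKM in WT libraries against 0.33, 0.376 and 0.293 in *TTP*-/- libraries at 0 h. It was lower in all *TTP*-/- libraries (log2 fold change −1.09 ± 0.163 SE, adjusted p = 0.00323) and overlapped at 6 and 9 h (−0.14 (adjusted p = 0.646) and 0.06 (adjusted p = 0.743)). *Trim25*, a ubiquitin ligase that acts with RIG-I, was lower at 0 h by −0.55 (0.007, or 0.058 with the replicate block). It was called at no later time without the block, and was higher at 6 h with it (0.32, 0.0331).

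*Helz2*, a helicase and coactivator of nuclear receptors (chr2:181227615-181242027, minus strand), had the largest negative difference of the set. Its values at 0 h were 39.1, 49.9 and 41.9 FPKM in WT libraries against 7.48, 8.97 and 12.8 in *TTP*-/- libraries. At 3 h they were 194, 182 and 183 FPKM in WT libraries against 102, 118 and 108 in *TTP*-/- libraries. At 9 h they were 206, 179.5 and 182 and 145, 122 and 139 FPKM. The *TTP*-/- libraries were the lower ones at each time, by −2.18 (adjusted p = 0.000678), −0.77 (0.00179), −0.46 (0.0793, or 0.0382 with the replicate block) and −0.48 (0.0107, but 0.0861 to 0.119 with TPM or quantile normalization). The lower calls of *Parp9* and *Dtx3l* at 0 h (−0.38 and −0.47, adjusted p = 0.0318 and 0.0174), whose products form an ADP-ribosyl transferase and ubiquitin ligase complex and whose genes overlap by 682 bases on opposite strands, were lost in 5 and 4 omissions (up to 0.118 and 0.0747). *Parp12* was called at no time, and *Parp14* only at 6 h with the replicate block (0.30, 0.045). Of the remaining members, *Tor3a* was higher at 0 h by 0.51 (0.017, lost in 3 omissions, up to 0.0827) and *Ifi44* at 9 h by 0.97 (0.00612), while *Ifi35*, *Xaf1*, *Trim30a* and *Sp100* had differences between −0.40 and 0.12 over the 4 times with no call.

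Whether the effect of the genotype itself changed with LPS was tested as the difference of the *TTP*-/- effect at 3, 6 or 9 h from that at 0 h. A separate fit of the 24 libraries was used, on FPKM as deposited. At 3 h the effect was higher than at 0 h for 7 of 40 members and lower for 6, against 3.07 and 1.92% of all genes. At 6 h it was higher for 13 and lower for 4 (5.50 and 2.84% of all genes), and at 9 h higher for 13 and lower for 1 (6.00 and 3.78%). The medians of the members were −0.15, 0.19 and 0.37 on the log2 scale, and those of all genes 0.00, 0.01 and 0.03. The 3 differences share the untreated libraries. In omissions of a single library the lower count at 3 h was 3 without WT 0 h replicate 3, and the lower count at 9 h was 2 without *TTP*-/- 9 h replicate 2 or WT 0 h replicate 2.

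Members differed in how this effect moved. The effects on *Helz2*, *Mx1*, *Mx2*, *Usp18*, *Herc6*, *Trim25* and *Adar* were higher at all 3 times than before LPS, so that each deficit of 0 h was smaller or gone by value after LPS, with *Helz2* at 1.41, 1.72 and 1.70 (adjusted p = 0.000438, 4.84e-05 and 4.96e-05) and *Usp18* at 0.72, 1.25 and 1.24 (0.0015, 4.38e-06 and 4.73e-06). The 3 h calls of *Herc6* and *Adar* were lost in 9 and 10 omissions of a library (up to 0.104 and 0.16). The effect on *Oasl2* was lower at all 3 times, at −1.48, −1.60 and −1.46 (1.13e-06, 3.02e-07 and 7.69e-07) after the excess of 1.65 at 0 h. For *Rsad2* and *Cmpk2* the effect was higher at 9 h than at 0 h, by 1.82 and 1.58 (0.000102 and 2.22e-05), and these calls held in each omission and setting. Their 6 h calls (0.81 and 0.65, 0.0483 and 0.0348) were lost in 11 and 9 omissions (up to 0.129 and 0.092). *Ifit3* was at 0.80 and 1.45 at 6 and 9 h (0.0412 and 0.000486), but its untreated WT level of 0.0717 FPKM is below the pseudocount, which shrinks the effect of 0 h. The ratio of its means was 3.08 before LPS, 3.25 at 6 h and 5.19 at 9 h, and with a pseudocount of 0.01 the *Ifit3* values were 0.20 and 0.86 (0.829 and 0.0777) and with voom 0.10 and 0.76 (0.947 and 0.353). The same holds for *Isg20*, at 1.05 at 9 h (0.00147) but 0.53 with a pseudocount of 0.01 (0.12) and 0.42 with voom (0.546). The effects on *Oas2* and *Oas1g*, present before LPS, did not pass the test of a difference at any time.

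The genes upstream of this set give the other measure of the pathway. Of 30 genes of interferon production and signaling, 24 passed the filter, of which 6, 5, 4 and 10 were higher and 3, 4, 0 and 3 lower in *TTP*-/- cells at 0, 3, 6 and 9 h (medians −0.0041, 0.04, 0.05 and 0.20). Of all genes 13.9, 11.3, 10.4 and 17.7% were higher and 15.5, 14.6, 6.70 and 19.1% lower, so that several of these counts are close to the background. *Ifnb1*, the gene of IFN-β, had 5.10, 3.07 and 2.13 FPKM in WT libraries against 9.72, 6.33 and 10.0 in *TTP*-/- libraries at 3 h. At 9 h the values were 0.3, 0.26 and 0.188 FPKM in WT libraries against 1.48, 1.88 and 1.59 in *TTP*-/- libraries. The groups did not overlap at 3, 6 or 9 h, and the log2 fold changes were 1.37, 1.96 and 2.33 (adjusted p = 0.0263, 0.00132 and 4.6e-05), with the 3 h call lost in 4 omissions (up to 0.0947). Few reads lie behind the late *Ifnb1* values. The lowest WT library had 5 reads at 6 h and 3 at 9 h, and the lowest *TTP*-/- library 35 and 26. *Irf7*, which amplifies interferon transcription, had 1.21, 1.73 and 1.26 FPKM in WT libraries against 4.03, 4.41 and 5.52 in *TTP*-/- libraries at 0 h. It was higher in all *TTP*-/- libraries at all 4 times, by 1.67, 0.69, 0.66 and 0.68 (0.000893, 0.00435, 0.0104 and 0.000796), and its 6 h call was lost without *TTP*-/- replicate 2 (0.0701).

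*Stat2* and *Irf9* were not higher by the test at any time. *Stat2* had 4.79, 5.73 and 5.11 FPKM in untreated WT libraries against 2.55, 2.73 and 3.21 in untreated *TTP*-/- libraries. All *TTP*-/- libraries were lower, by −0.86 at 0 h (0.0032) and −0.38 at 3 h (0.0156, lost in 3 omissions, up to 0.0812). *Irf9* was called at no time. Of the receptor chains, *Ifnar2* was higher at all 4 times (0.46, 0.29, 0.53 and 0.84, adjusted p = 0.0132, 0.0365, 0.00904 and 0.00226), with the calls of 0, 3 and 6 h lost in 3, 5 and 1 omissions (up to 0.0688, 0.126 and 0.0634). *Ifnar1* was higher at 9 h alone by the test (0.38, 0.0157, lost without *TTP*-/- replicate 1 or WT replicate 1, up to 0.0585). *Socs1*, an inhibitor of JAK kinases, was higher by 1.85 at 6 h (0.0201) and 1.25 at 9 h (0.000148), and *Irf8*, a factor of dendritic cell development, was lower by −1.15, −0.50 and −0.63 at 0, 3 and 9 h (0.00746, 0.00786 and 0.00634).

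**Figure D4:**
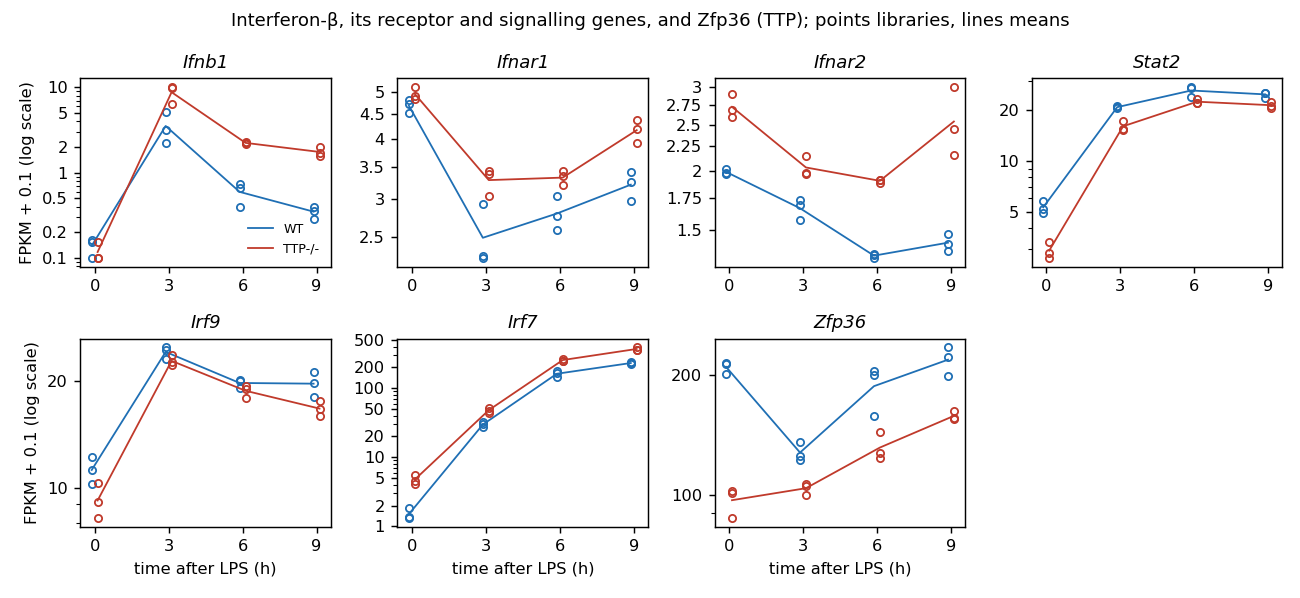
Levels of *Ifnb1*, of the receptor chains *Ifnar1* and *Ifnar2*, of *Stat2*, *Irf9* and *Irf7* and of *Zfp36* as FPKM + 0.1 (y axis, log scale), which the authors scaled within each time, against hours of LPS (x axis) in WT and *TTP*-/- BMDCs, with 1 point for each library and a line through the means of the 3 replicates. *Ifnb1* peaks at 3 h in both genotypes and at 9 h is 0.249 ± 0.0568 in WT and 1.65 ± 0.203 FPKM (mean ± SD) in *TTP*-/- cells, whereas the lines of *Irf9* lie close together.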

How the data were processed

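FPKM per gene of 24 libraries (WT and *TTP*-/- BMDCs at 4 times of LPS stimulation, 3 biological replicates each) were deposited by the authors in 4 tables, 1 for each time. Before deposition the authors used cutadapt on single-end reads, STAR 2.5 with the GRCm38 genome and, for each time, DESeq2. Deposited FPKM values were made by the authors from reads per gene, are scaled within the 6 libraries of a table and, in 87.5 to 88.0% of 9843 genes, divide by the whole span of the gene. The mean signal deposited by the authors, the mean of normalised counts per gene, served only to find the scaling. Columns with the authors' log2 fold changes, standard errors, statistics and p-values were not used.

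Whole reads were recovered from FPKM within 0.05 of a whole number and gave the depth, which limits the precision of low genes. A mean of 0.5 FPKM or more over all libraries was required (8350, of which 8344 in each table). *TTP*-/- was compared with WT on log2(FPKM + 0.1) with limma 3.58.1 (R 4.3.3, mean-variance trend), separately at each time, with p-values adjusted by Benjamini-Hochberg over all genes past the filter and 0.05 as the threshold. Changes after LPS came from 1 fit of the 24 libraries after 1 set of median-ratio size factors. Differences of the effect came from a separate fit of the 24 libraries on FPKM as deposited, without these factors. The fits were tested on simulated data.

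The members and the gene lists were chosen with earlier results of these data known. Values in all libraries were given, by a rule, for up to 4 members higher and 4 lower with the largest change at each time, for 1 head of each family, for the pathway genes shown and for up to 4 called genes of each list. *Siglech* and *Ear6* were not analysed here, and some genes of these lists are not reported here. Alternatives included pseudocounts of 1 and 0.01, a filter at 5 FPKM and none, TPM, quantile normalization, limma without trend, voom on recovered reads (mean of at least 10), 1 fit of all libraries, FPKM as deposited for changes over time, a replicate block, and omission of each library in turn. Same-numbered replicates of the genotypes deviated together, with each of 3 correlations over 0.1 (0.506, 0.216 and 0.498), only at 6 h, and in 5 of 12 pairs in all. Genes were placed by GENCODE mouse release 21, promoters by RefSeq. A p-value here reflects the spread between the libraries of a group, which the authors name biological replicates. Close relatives (*Oas1a* and *Oas1g*, *Ifit3* and *Ifit3b*, *Mx1* and *Mx2*) and overlapping genes may share reads.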

Additional observations from a re-analysis of the deposited data

Results flagged for a closer look

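The difference between *TTP*-/- and WT cells was itself different after LPS from that at 0 h for the members given here, by the limma test of the difference of effects at an adjusted p of at most 0.05. Positive values are an effect that was higher after LPS than before, on the log2(FPKM + 0.1) scale, and the 3 sets share the untreated libraries.

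At 3 h the differences above 0 were *Helz2* 1.41, *Mx1* 1.19, *Mx2* 1.13, *Herc6* 0.84, *Usp18* 0.72, *Trim25* 0.68 and *Adar* 0.58. Those below 0 at 3 h were *Rtp4* −1.59, *Oasl2* −1.48, *Isg15* −1.08, *Ddx58* −0.92, *Oas1a* −0.74 and *Ifitm3* −0.58. *Isg15*, which differed by test at no single time, had a value of 0.86 at 0 h and −0.22 at 3 h. The calls of *Adar*, *Herc6*, *Isg15*, *Oas1a* and *Ifitm3* at 3 h were lost in 10, 9, 10, 9 and 1 omissions of a library (adjusted p up to 0.16, 0.104, 0.125, 0.0965 and 0.0576, the last without WT 0 h replicate 3), those of *Mx2* and *Usp18* with a pseudocount of 1 (0.344 and 0.0549), and 8 of 13 held in each omission.

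At 6 h the differences above 0 were *Helz2* 1.72, *Mx2* 1.41, *Mx1* 1.32, *Usp18* 1.25, *Herc6* 0.95, *Trim25* 0.87, *Samhd1* 0.82, *Rsad2* 0.81, *Ifit3* 0.80, *Adar* 0.72, *Cmpk2* 0.65, *Dtx3l* 0.53 and *Parp14* 0.43. Those below 0 were *Oasl2* −1.60, *Rtp4* −0.97, *Ifitm3* −0.69 and *Ddx58* −0.55. The calls of *Rsad2*, *Ifit3*, *Cmpk2* and *Dtx3l* at 6 h were lost in 11, 10, 9 and 2 omissions (up to 0.129, 0.0982, 0.092 and 0.0567), those of *Ddx58*, *Herc6* and *Rtp4* with a pseudocount of 1 (0.893, 0.116 and 0.0804) and that of *Parp14* with TPM (0.0879), and 13 of 17 held in each omission.

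At 9 h the differences above 0 were *Rsad2* 1.82, *Helz2* 1.70, *Cmpk2* 1.58, *Ifit3* 1.45, *Usp18* 1.24, *Mx1* 1.20, *Mx2* 1.19, *Herc6* 1.15, *Isg20* 1.05, *Samhd1* 0.74, *Trim25* 0.71, *Ifit2* 0.69 and *Adar* 0.68. *Oasl2*, at −1.46, was below 0. The call of *Ifit2* at 9 h was lost in 9 omissions (up to 0.116), and 13 of 14 held in each. *Ifit3*, *Isg20* and *Ifit2* start from 0.0717, 0.0806 and 0.0615 FPKM in WT cells, below the pseudocount of 0.1. With a pseudocount of 0.01 their 9 h values were 0.86, 0.53 and 0.28 (0.0777, 0.12 and 0.552) and with voom 0.76, 0.42 and 0.16 (0.353, 0.546 and 0.831), so none of the 3 was called. The *Mx2* call at 9 h was lost with a pseudocount of 1 (0.106).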

How the results depend on the processing

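The counts of members higher or lower after LPS were the same without each library in turn (39 or 40 higher and 0 lower). For *TTP*-/- against WT the higher counts ranged over the omissions from 10 to 15 at 0 h, 2 to 10 at 3 h, 7 to 14 at 6 h and 12 to 15 at 9 h, and the lower counts from 7 to 12, 1 to 10, 0 to 1 and 1 to 3. For the difference of the effect from 0 h, higher counts ranged from 5 to 7, 9 to 12 and 12 to 15 and lower counts from 3 to 7, 4 to 6 and 1 to 2 at 3, 6 and 9 h. At 3 h the 8 higher members became 5 without a filter or with the replicate block, and the 5 lower became 3 with quantile normalization, 2 with TPM and 2 with the block. At 6 h the 0 lower became 1 with 1 fit of 24 libraries, with the block and with voom. At 9 h the 3 lower became 1 with quantile normalization, 1 with the block and 0 with TPM. A pseudocount of 1 gave 3 in place of 7 higher differences at 3 h and 2 in place of 4 lower at 6 h, and a pseudocount of 0.01 or voom gave 2 in place of 1 lower at 9 h. The sign of the difference at 6 h against 0 h turned for *Oas1g* with a pseudocount of 1 (0.59, from −0.04). The cause of these shifts was not tested. Depth limits untreated *Ifit2* and *Ifit3*, at 0.05 to 0.09 FPKM in WT libraries.

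Replicate numbers paired the genotypes only at 6 h by the correlation of deviations (−0.582 to 0.506 over 12 pairs), and 6 of 12 libraries correlated best with their own number. Libraries of different number also deviated together, with 0.707 for WT replicate 2 and *TTP*-/- replicate 3 at 0 h. A block by replicate number does not cover such a pair. Over genes and comparisons the replicate block left 494 values on the same side of the threshold, ended 22 calls and added 4. The 4 are *Helz2*, *Parp14*, *Trim25* and *Usp18* at 6 h.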

Other observations

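Another list of 62 interferon-stimulated genes, 55 of them tested, was counted in the same way. Of the 55, 16, 11, 16 and 23 were higher and 7, 4, 2 and 3 lower in *TTP*-/- cells at 0, 3, 6 and 9 h, with medians of 0.11, −0.02, 0.14 and 0.35. Of all genes 13.9, 11.3, 10.4 and 17.7% were higher and 15.5, 14.6, 6.70 and 19.1% lower. *Cxcl10*, a chemokine that attracts activated T cells, had 89.0, 84.6 and 89.2 FPKM in WT libraries against 605, 898 and 529 in *TTP*-/- libraries at 9 h. Its groups were apart at all 4 times, with log2 fold changes of 1.18, 1.32, 1.96 and 2.91 (limma, adjusted p = 0.00311, 0.00644, 7.64e-05 and 4.64e-05).

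*Slfn4*, a Schlafen gene of myeloid cells, had 0.645, 0.204 and 0.891 FPKM in WT libraries against 8.18, 10.7 and 7.56 in *TTP*-/- libraries at 9 h and the largest value of the list at 9 h (3.86, adjusted p = 0.000388 with limma). *Ifit3b* and *Ifit1bl1*, relatives of the IFIT genes on the same chromosome, had differences of 2.26 and 3.64 at 9 h (adjusted p = 3.41e-05 and 4.9e-05). The neutrophil and macrophage marker sums were higher in the same *TTP*-/- libraries, and their part in these differences was not tested.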
